A study of Mus musculus with 12 samples.

Results

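The clustered protocadherin genes were examined in 11 lists of regions bound in chromatin immunoprecipitation with sequencing (ChIP-seq), made from cell lines of mouse pancreatic cancer. The members were all listed regions that touched chromosome 18 between 37.08 and 38.01 Mb of the mm9 build, a window of 930 kb that holds the Pcdha, Pcdhb and Pcdhg clusters in this order. They numbered 34 of the 313566 regions in all lists. H3K4me3 of the female WT line gave 9 of them, H3K27ac of the same line 5 and H3K27me3 of the same line 1. H3K4me1 gave 2 in female KO, 5 in female WT, 6 in male KO and 5 in male WT. KDM6A gave 0 in female KO and 1 in female WT, and MLL4 gave 0 in both female lines. Of the 34, 4 cross the end of the window, and covered lengths count only the bases inside it.

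The groups were the female KDM6A-KO line, the female KDM6A-WT line, the male KDM6A-KO line and the male KDM6A-WT line. Each antibody used in a line had 1 library there. The male lines had H3K4me1 only. H3K4me3, H3K27ac and H3K27me3 came from the female WT line only, and KDM6A and MLL4 from both female lines. The cells were grown in F12/DMEM with EGF and were untreated. Every label, those of the WT lines included, gives a Kdm6a-null tumour as the origin, so KO and WT follow the genotype field, which the labels do not explain further. KDM6A is a demethylase of H3K27me3, and MLL4 (KMT2D) is a methyltransferase that places H3K4me1. The labelled origin was not checked against marker genes, because no gene was assigned to a region.

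Clustered protocadherins are cadherin-like adhesion proteins of the cell surface, best known from neurons, where each cell uses a small choice of them for self-recognition. In the Pcdha and Pcdhg clusters, many variable first exons, each with its own promoter, are spliced to shared constant exons at the end of the cluster, while Pcdhb genes have a single coding exon each. The last genes of the Pcdha and Pcdhg clusters, the C-type genes, are used more constitutively than the others. The RefSeq gene table at hand, of the GRCm38 build, names 14 Pcdha, 22 Pcdhb and 22 Pcdhg genes. It places Slc25a2, a mitochondrial carrier, and Taf7, a subunit of the general transcription factor TFIID, between the Pcdhb and the Pcdhg genes. Diaph1, a regulator of actin, and Hdac3, a histone deacetylase, follow the Pcdhg cluster. These names give only the order of genes, since the builds differ.

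H3K4me3 marks promoters, H3K27ac active promoters and enhancers, H3K4me1 enhancers and the flanks of promoters, and H3K27me3 chromatin repressed by Polycomb. In the female WT line all 4 marks were absent from the lists over the first 722.0 kb of the window. The stretch without any of them ran from 36973801, before the window, to 37802000, a length of 828.2 kb. Of the gaps between neighbouring regions of these 4 marks over all chromosomes, 0.363% were as long or longer, but such gaps together held 17.0% of the span of 2569 Mb between the outermost regions of all lists. The H3K4me1 lists of female KO and male KO had no region in the window before 37801801 either. A listed region marks signal past the authors' threshold, so an empty stretch may hold weaker signal, and repeats to which reads do not map cannot be told apart from unmarked chromatin.

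Within bins of 50 kb, counted from the start of the window with a last bin of 30 kb, 7 of 19 held a region of any histone list, or 36.8% (exact 95% interval 16.3 to 61.6). Over all 50 kb bins of the span the share was 68.7%. The interval counts bins as independent, although the marked bins lay in runs of neighbours. With KDM6A and MLL4 added, 8 of 19 bins held a region, against 71.5% of all bins. By list, H3K4me3 was present in 5 bins, against 29.7% of all bins of the span, H3K27ac in 3, against 31.6%, and H3K27me3 in 1, against 28.7%. H3K4me1 was present in 2 bins of 19 in female KO, against 32.2% of all bins, and in 3 in female WT, against 42.7%. In the male lines H3K4me1 was present in 4 bins each, against 45.8% of all bins in male KO and 50.9% in male WT. The bins of the window with a histone region lay at its far end, apart from those at 200 to 300 kb, which held H3K4me1 of male WT alone. The KDM6A region of female WT lay in the bin from 350 to 400 kb.

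**Figure D1:**
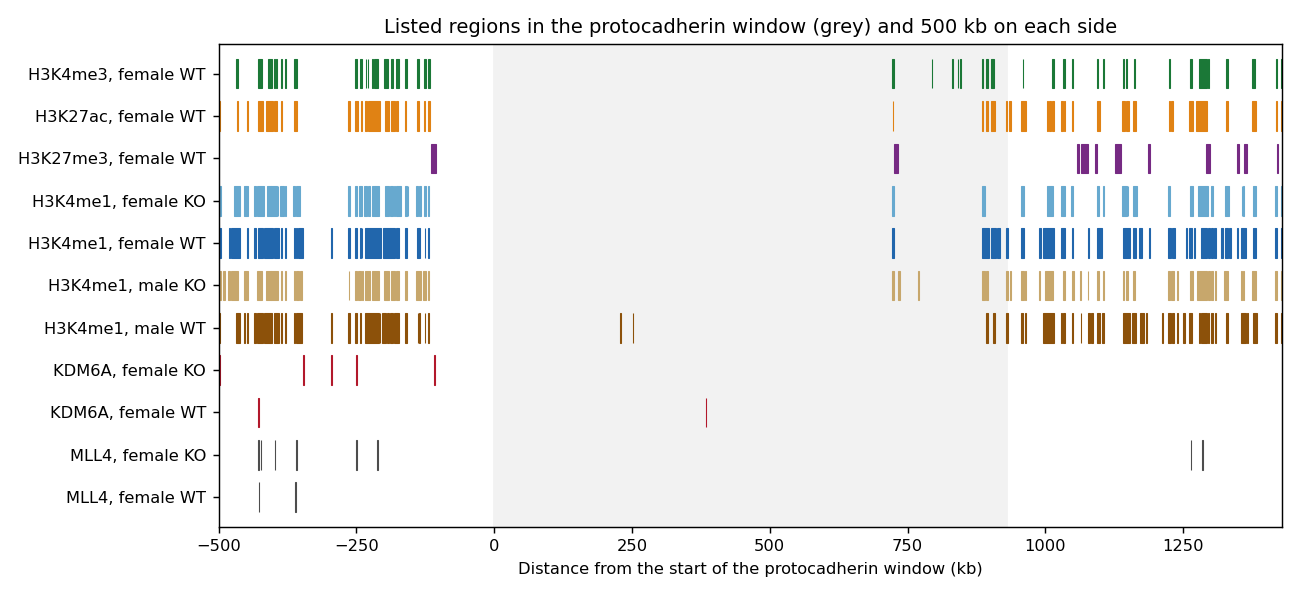
Listed regions of the 11 lists by distance from the start of the protocadherin window in kb, with the window shaded and 500 kb on each side. Each row is a library and each block a region. Nearly all regions of the window lie beyond 700 kb. After the window H3K27ac and H3K4me1 resume within 26.6 kb, while before it the nearest histone regions end 106.2 to 118.4 kb away.

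Listed regions of each histone mark covered a smaller share of the window than of its surroundings. By number of regions H3K4me3 was near background, with 9 against 7.21 at the density of chromosome 18 and 8.87 at that of the span. The other histone lists had fewer regions than at either density. H3K4me3 covered 1.87% of the window, against 15.5% of the 500 kb before it, 11.6% of the 500 kb after it and 2.88% of the span. H3K27ac covered 1.51% of the window, against 20.9% before, 18.8% after and 4.51% of the span. H3K27me3 covered 0.839% of the window, 1.64% before it, 10.8% after it and 10.5% of the span. H3K4me1 covered between 0.903% of the window in female KO and 3.27% in female WT. In the flanks each H3K4me1 list covered between 19.4% and 31.3%. Chromosome 18 as a whole held less H3K4me3, H3K27ac and H3K27me3 than the span, at 2.235%, 3.33% and 6.38%, and the window lay under those values too. With 1 library per group these shares have no replicate check.

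**Figure D2:**
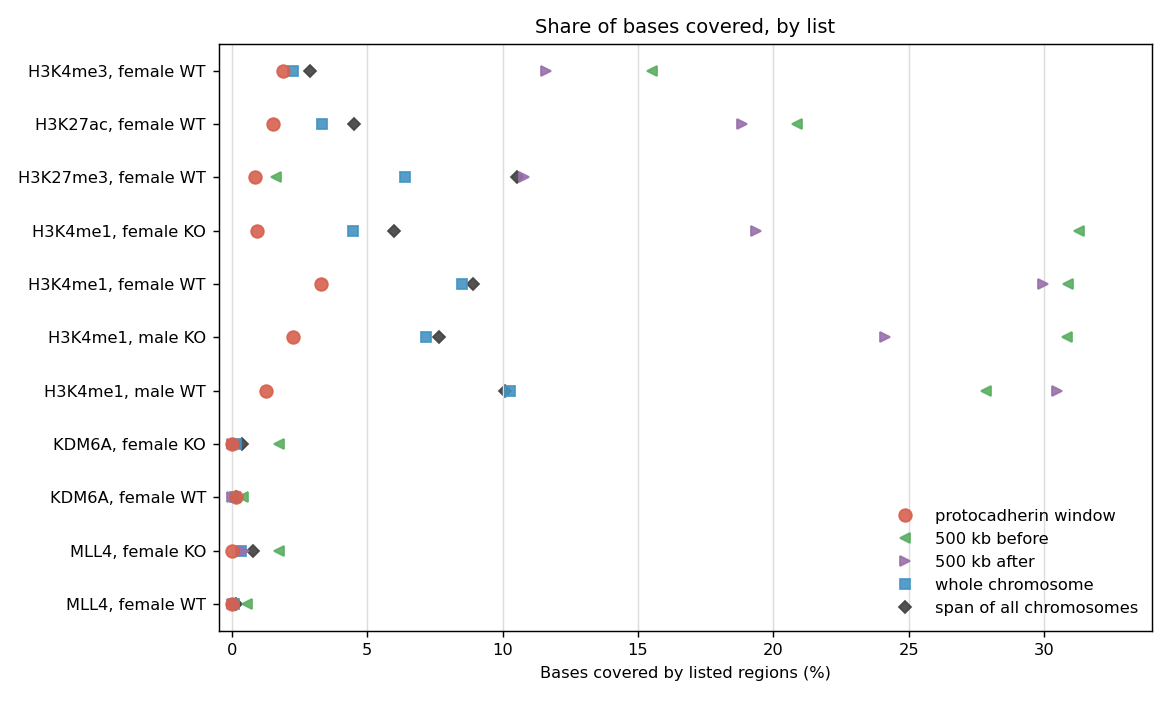
Share of bases covered by listed regions, in percent, for each of the 11 lists. Points give the protocadherin window, the 500 kb before and after it, the whole chromosome and the span of all chromosomes. In all 7 histone lists the window lies left of every other point.

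The H3K4me3 regions ranged widely in reads. The strongest by reads was 37965001 to 37967400, with 974 reads over 2.4 kb, followed by 37802001 to 37805200 with 872 reads and 37972601 to 37976000 with 810 reads. These 3 stood at the 69.5, 66.4 and 64.6 percentile of the list by reads, that is, in the upper but not the leading part of it. A neighbouring pair, 37981201 to 37983000 with 203 reads and 37983801 to 37986600 with 460 reads, lay near the middle of the list. The other 4 regions were small. They were 37874401 to 37875000 with 30 reads, 37911001 to 37911800 with 55, 37920801 to 37922200 with 99 and 37925401 to 37926400 with 88. Their read density was 50 to 88.0 reads per kb, against a list median of 131.2, and their percentiles by reads ran from 1.92 to 29.4.

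The 5 H3K4me3 regions with the most reads, the neighbouring pair included, and the 4 small ones differed in what else was listed there. H3K27ac overlapped 5 of the 9, or 55.6% (exact 95% interval 21.2 to 86.3), against 82.9% of all H3K4me3 regions. H3K4me1 of female WT overlapped the same 5 regions, against 81.1% of all. The 4 small regions carried none of the other 3 histone marks of female WT, and none of the H3K4me1 lists of the other lines had a region there. That is 44.4% of the members (13.7 to 78.8), against 5.14% of all H3K4me3 regions. The 4 regions lie low in the list by both reads and length. No share among regions of like size or reads was computed, so like regions are not compared here. The intervals cover counting error over regions only.

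H3K27ac in the window formed 5 regions, the largest at 37981401 to 37988400 with 359 reads over 7.0 kb, at the 82.2 percentile by reads. It spanned the neighbouring pair of H3K4me3 regions. At 37965401 to 37967200 and at 37973001 to 37975400 H3K27ac held 130 and 131 reads, both just under the list median of 136. The regions at 37802801 to 37804400 and 38008801 to 38011000 were weak, with 57 and 50 reads. H3K4me3 overlapped 4 of the 5, against 65.0% of all H3K27ac regions, and H3K4me1 of female WT overlapped 5 of 5, against 84.2%. The region without H3K4me3, which crosses the end of the window, held H3K27ac together with H3K4me1.

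H3K27me3 was listed at a single place, 37805001 to 37812800, with 183 reads over 7.8 kb and at the 68.0 percentile of its list by reads. Its first 200 bp overlapped the H3K4me3 region that ends at 37805200, so 1 of 9 H3K4me3 regions met H3K27me3, against 16.0% of all. At the demand that 50% of the H3K4me3 region be covered the number was 0. The 2 marks lay side by side, not on top of each other. No other part of the window was listed for H3K27me3.

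**Figure D3:**
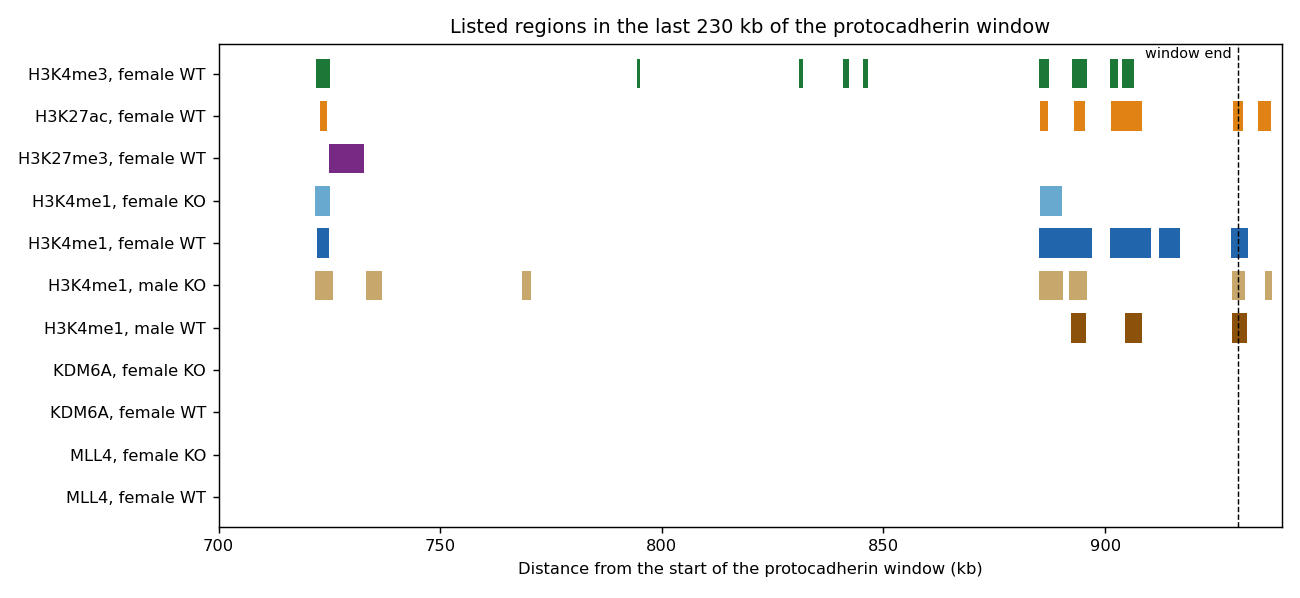
Listed regions in the last 230 kb of the window by distance from its start in kb, 1 row per library. The dashed line is the end of the window. H3K4me3, H3K27ac and H3K4me1 stand together near 722 kb and between 885 and 908.4 kb, and the small H3K4me3 regions between 794.4 and 846.4 kb stand alone.

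**Figure D4:**
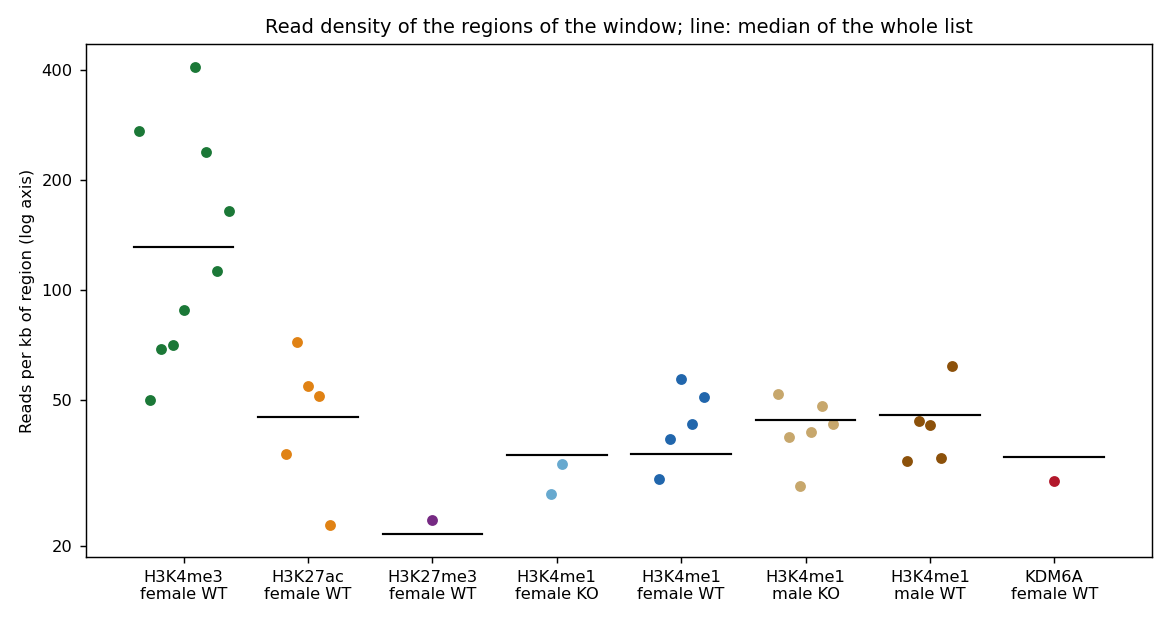
Reads per kb of each of the 34 regions, on a log axis, by list and, within a list, by position from left to right. The line is the median of the whole list. H3K4me3 spans 50 to 405.8 reads per kb around a median of 131.2, and the H3K4me1 regions stay near their medians.

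H3K4me1 was set between KO and WT within each sex, the question being whether its coverage of the window differed with the KDM6A genotype. Over the whole window the difference ran in opposite directions. By bin it did so only from 850 to 900 kb. From 900 kb on KO covered less than WT in both sexes. From 700 to 750 kb KO covered more in both, though by little in the female lines. There it was 3.4 kb in KO against 2.8 kb in WT, and in the male lines 7.6 kb against 0.0 kb. In the female lines H3K4me1 covered 8.4 kb of the window in KO, against 30.4 kb in WT, a ratio of 0.276. In the male lines it covered 20.8 kb in KO, against 11.6 kb in WT, a ratio of 1.79. Over the span the ratio of KO to WT was 0.671 in the female and 0.759 in the male lines, and over chromosome 18 it was 0.524 and 0.700. The male lines thus went against their own list as a whole, where WT covered more. The female difference rested on the end of the window. Without the last 60 kb, a choice made after the values were seen, KO minus WT was 0.0690 percentage points in the female lines in place of -2.37. In the male lines the corresponding values were 0.782 and 0.989. With 1 library per line there was no test.

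**Figure D5:**
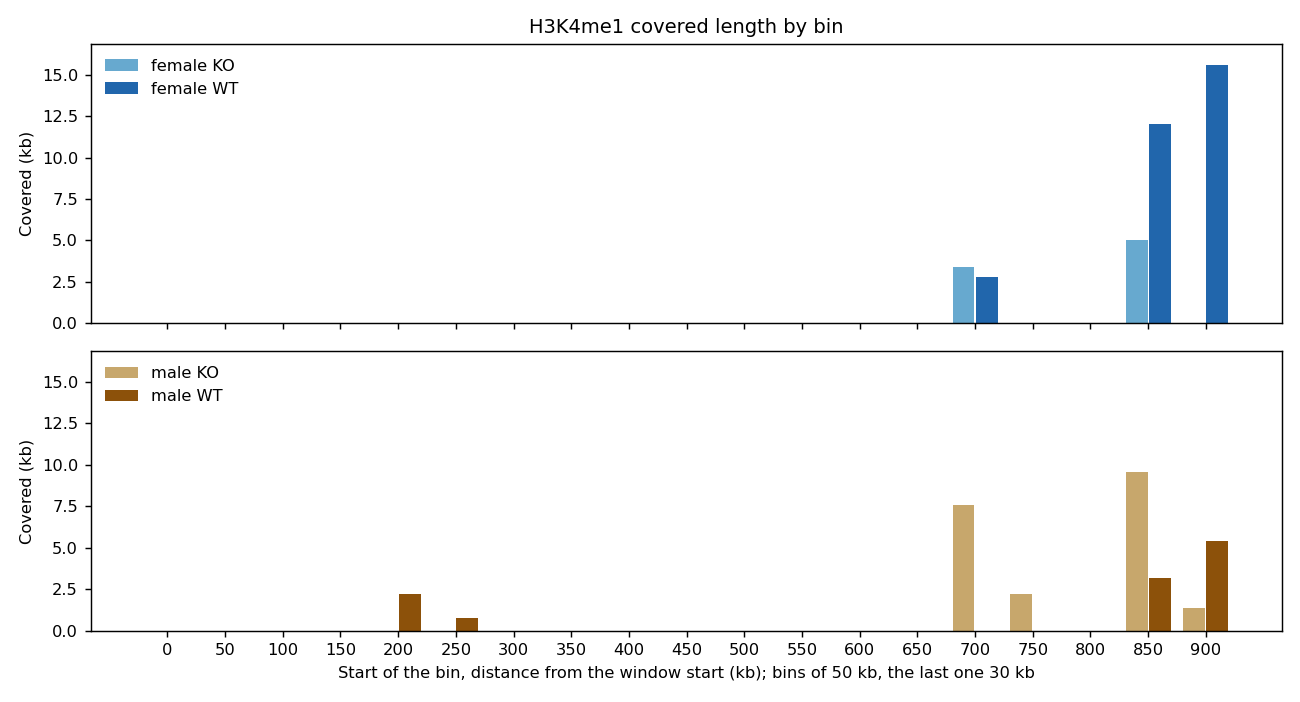
Length covered by H3K4me1 regions, in kb, in each bin of the window for the female lines above and the male lines below, with KO left of WT in each bin. The bin from 850 kb holds 5.0 kb in female KO and 12.0 kb in female WT, but 9.6 kb in male KO and 3.2 kb in male WT. The bin from 900 kb holds less in KO in both sexes, 0 against 15.6 kb in female and 1.4 against 5.4 kb in male lines. The bin from 700 kb holds more in KO in both, 3.4 against 2.8 kb and 7.6 against 0 kb.

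Female KO listed 37801801 to 37805200 with 94 reads and 37965201 to 37970200 with 167 reads. Both were also covered in female WT, so 0 of 2 female KO regions lacked a WT counterpart, against 23.4% of all. Female WT listed 37802201 to 37805000 with 85 reads and, at the far end, 37965001 to 37977000 with 470, 37981201 to 37990400 with 525, 37992201 to 37997000 with 206 and 38008401 to 38012200 with 193. The regions of 470 and 525 reads stood at the 93.2 and 94.3 percentile of the list by reads. Of the 5, 3 had no region in female KO, or 60% (14.7 to 94.7), against 51.1% of all female WT regions, a share near the background. With regions within 5 kb merged, 1 of the 3 merged female WT regions had none. H3K27ac of the same line overlapped 4 of the 5, against 47.4% of all female WT regions. Of the bases listed in female KO within the window 92.9% were listed in WT, and of the WT bases 25.7% were listed in KO. Over the span these shares were 66.9% and 44.9%.

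Male KO listed 37801801 to 37805800 with 208 reads, 37813201 to 37816800 with 143, 37848401 to 37850600 with 64, 37965001 to 37970600 with 229, 37971801 to 37975800 with 193 and 38008601 to 38011600 with 129. The first 4 of these had no region in male WT, or 66.7% (22.3 to 95.7), against 25.4% of all male KO regions. Male WT listed 37307401 to 37309600 with 75 reads and 37331601 to 37332400 with 35, both in the part of the window without any other histone region. It further listed 37972401 to 37975600 with 137, 37984401 to 37988400 with 139 and 38008601 to 38012000 with 211. Of these 5, 3 had no region in male KO, against 42.0% of all male WT regions. With the male lists shortened to equal length by reads, 1 male WT region had none. The region of 35 reads stood at the 0.257 percentile of its list. Male KO and male WT shared 22.1% of the KO bases and 39.7% of the WT bases in the window, where the span gave 69.9% and 53.0%.

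Merging the 4 H3K4me1 lists gave 9 intervals in the window. The interval at 37965001 to 37977000 was the only 1 of 9 present in all 4 lists, against 24.0% of all merged intervals. The lines covered different parts of it, with 5.0 kb in female KO, 12.0 kb in female WT, 9.6 kb in male KO and 3.2 kb in male WT. The female KO region ended at 37970200 and the male WT region began at 37972401. These 2 shared no base, so no base of the interval was listed in all 4 lists. The interval at 37981201 to 37990400, which carries H3K4me3 and the largest H3K27ac region of female WT, was listed in both WT lines and in neither KO line. It held 9.2 kb in female WT and 4.0 kb in male WT, and this pattern was found in 12.0% of all merged intervals. The interval at 37801801 to 37805800 was listed in both KO lines and in female WT, but not in male WT. This pattern was that of 1.59% of all merged intervals. Its end overlapped the H3K27me3 region of female WT, which starts at 37805001. The regions of female KO and male KO, ending at 37805200 and 37805800, reached into the H3K27me3 region. The H3K4me1 region of female WT, ending at 37805000, did not. The interval at 38008401 to 38012200 was listed in all lines except female KO, as were 8.05% of all merged intervals. The remaining 5 intervals were each listed in 1 line alone, 2 in male KO, 1 in female WT and 2 in male WT, against 39.5% of all merged intervals.

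Across the sexes, the bases listed in female KO within the window were all listed in male KO, 8.4 of 8.4 kb, where the span gave 74.2%, and they made up 40.4% of the male KO bases, against 57.9% over the span. None of those bases was listed in male WT, where the span gave 72.8%. The female KO bases of the window lay in only 2 regions, while the span shares rest on 35041 female KO regions. Of the bases listed in female WT, 28.3% were listed in male WT, against 73.5% over the span, and these made up 74.1% of the male WT bases, against 64.9%. Female WT shared more bases with male KO, 13.8 kb, than with male WT, 8.6 kb. That was 45.4% of the female WT bases, against 54.8% over the span, and 66.3% of the male KO bases, against 63.7%. These shares describe 4 libraries and were not tested.

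The KDM6A and MLL4 lists held 1 region in the window. The only KDM6A region, of female WT, was at 37463601 to 37464800 with 36 reads, under the list median of 44 and at the 19.4 percentile by reads. None of the other 10 lists had a region there. Among all KDM6A regions of WT, 34.1% lacked the 4 histone marks of the same line. The female KO line had no KDM6A region in the window, although its list was the longer, with 5961 regions over all chromosomes against 2847 in WT. Listed KDM6A regions thus fell in 0 bins in KO, against 8.68% of all bins, and in 1 bin of 19 in WT, against 4.89%. The longer KDM6A list came from the line labelled KDM6A-KO, and whether a listed region reflects bound KDM6A was not tested. MLL4 was present in 0 bins in KO, against 15.3% of all bins, and in 0 in WT, against 3.78%. At the mean density of regions on chromosome 18 the window would hold 0.946 KDM6A regions in KO, 0.659 in WT, 2.25 MLL4 regions in KO and 0.457 in WT. In WT the counts, 1 for KDM6A and 0 for MLL4, lay near these values. Numbers this low leave little room for a shortfall to be seen. The nearest MLL4 regions of KO were 210.6 kb before and 333.6 kb after the window. None of the regions with H3K4me3, H3K27ac or H3K4me1 in the window met a KDM6A or MLL4 region of any line. With 1 KDM6A region and 0 MLL4 regions there, this was almost fixed in advance. The share over all histone regions was not computed, so nothing is concluded from it.

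Before the window, the nearest H3K4me3, H3K27ac and H3K4me1 regions ended between 116.0 and 118.4 kb from its start and the nearest H3K27me3 region, at 36965601 to 36973800 with 144 reads, 106.2 kb from it. After the window, H3K27ac resumed at 4.4 kb with a region of 119 reads, H3K4me1 of male KO at 6.0 kb with 50 reads, and the other H3K4me1 lists between 25.6 and 26.6 kb. H3K4me3 resumed at 29.0 kb and H3K27me3 at 127.0 kb.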

How the data were processed

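ChIP-seq libraries of 4 mouse lines were deposited as region lists, 11 of the 12 libraries with a list used here. The mm9 build, SICER 1 and Bowtie 1.1.2 are named per the submitters' processing notes, with no role given. Each deposited list gives a position and a whole number, which no header names and which was read, from its values, as a count of reads per region. The library without a list, of the female WT line, is titled input, with IgG as its antibody. Whether it was the control for the lists, their threshold and the depth are not given in the sources used here. Reads within lists ranged from 108165 to 17526099, so counts were ranked only within a list.

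The members and alternatives were chosen with earlier results of these data known. Overlap meant at least 1 bp. All members were named, by a rule of up to 10 regions per list. Intervals on shares are exact Clopper-Pearson at 95%. No p-value was computed, since each group had 1 library. The span ran between the outermost regions of all lists on 20 chromosomes. Alternatives were the upper 50% of each list by reads, a window wider by 50 kb per side, regions within 5 kb merged, regions wholly inside, equal list lengths, 50% coverage, bins shifted by 25 kb and bins with at least 1 kb covered. Leaving out the last 60 kb, and widening for the KO-WT difference, were added after seeing the data. Overlaps used Python 3.11.15, numpy 2.4.6, pandas 2.3.3 and scipy 1.17.1, were checked against bedtools 2.31.1 and tested on simulated data. Figures were drawn with matplotlib 3.10.9.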

Additional observations from a re-analysis of the deposited data

Results flagged for a closer look

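The share of the protocadherin window covered by H3K4me1 differed between KO and WT in opposite directions in the 2 sexes. KO minus WT was -2.37 percentage points in the female lines and 0.989 percentage points in the male lines. By bin, the directions were opposite only in the bin from 850 kb. The difference between the sexes was not tested, since each line had 1 library.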

How the results depend on the processing

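Of 93 alternative values, 74 stayed within the counting interval over 200 bp steps (for shares and differences of coverage) or within 1.5 times (for counts), 18 moved and 1 changed direction. The interval over steps counts steps within 1 region as independent, which they are not. With the upper 50% of each list by reads, coverage was 1.27% for H3K4me3, 0.753% for H3K27ac, 0.538% for H3K4me1 of female KO, 0.925% for H3K4me1 of male WT and 0% for KDM6A of WT. The numbers of regions were then 4, 1, 1, 3 and 0, fewer regions by construction. With the window wider by 50 kb per side, coverage was 2.49% for H3K27ac, and for H3K4me1 1.28% in female KO, 3.01% in male KO and 1.90% in male WT. With regions within 5 kb merged, female WT had 3 H3K4me1 regions and 1 without a KO region. With lists of equal length, 1 male WT region lacked a KO region. With 50% coverage, 0 H3K4me3 regions met H3K27me3. The direction changed for H3K4me1 of the female lines without the last 60 kb, where KO minus WT was 0.0690 percentage points. The male difference kept its sign under all 4 alternatives. No paired analysis was possible because each group held 1 library, all with the same replicate number.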
